A study of Mus musculus with 6 samples.

Results

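The 41 genes described here encode the machinery that stores neurotransmitter in synaptic vesicles, fuses the vesicles with the membrane and takes them back up. They were listed by name for their role in this cycle, with earlier results of these data known. All 41 were found by symbol among the 55416 genes of the deposited count files. The list was divided by role into 9 SNARE genes and SNARE regulators, 5 synaptotagmins, 17 genes of the vesicle membrane or vesicle surface, 6 active zone genes and 4 genes of vesicle endocytosis. The samples were oligodendrocyte precursor cells from the cortex of mice at postnatal day 11, each sample pooled from 4 to 6 mice, and polyadenylated RNA was read by 3' tags (QuantSeq 3' mRNA-Seq FWD). All mice carried Pdgfra-Cre and the RosaEYFP reporter. The 3 control samples were Ift88 fl/wt, with 1 floxed and 1 wild-type copy of the cilium gene Ift88, and the 3 samples called cKO were Ift88 fl/fl. Deletion therefore depends on where the Pdgfra promoter is active, controls also carry Cre and a floxed allele, and values come from pools, so each p-value reflects the variation among pools.

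In a nerve terminal, vesicles carrying the SNARE protein VAMP dock at the active zone, where SNAP-25 and syntaxin of the target membrane zip up with VAMP and drive fusion. Synaptotagmins sense the calcium that triggers this step, complexins hold the SNAREs ready, and NSF with the SNAP adaptor proteins takes used complexes apart. These proteins are best known from neurons, but glia, precursors of oligodendrocytes among them, also use parts of the same machinery for membrane traffic.

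Library depth was 11773548 to 13909236 counts in 5 libraries and 568509 counts in cKO replicate 2, which had counts for 3651 genes against 14047 to 16252 in the 5 deep libraries. Levels are given as CPM, the count scaled to the library total. By counting error alone, a gene without counts could still have had 0.216 to 0.255 CPM in a deep library, compared with 5.28 CPM in cKO replicate 2. Ift88 itself was counted 143, 32 and 167 times in the controls, compared with 1, 0 and 305 times in cKO 1 to 3. The labels do not give the floxed exons, and a 3' tag may lie outside them, so this does not check the genotype labels. Of 13 markers of oligodendrocyte precursors, 5 had 0 counts in all deep libraries (Sox10, Tnr, Pcdh15, Neu4 and Gpr17) and 3 had at least 20 counts in each of them. Their summed level was 232 to 480 CPM in the controls, compared with 7.04 to 225 CPM in the cKO libraries. The markers did not move together: C1ql1 had a mean of 174 CPM in the controls and 24.7 CPM in cKO replicates 1 and 3, without overlap, while Pdgfra (2.92 against 10.7 CPM), Cspg4 (6.99 against 16.6 CPM) and Vcan (22.3 against 35.4 CPM) were higher in both deep cKO libraries than in all controls. Among all genes tested, 13.0% were higher and 12.6% lower in this way. The 16 neuron markers outside the 41 genes summed to 2514 to 7970 CPM in the controls, compared with 2181 to 9049 CPM in the cKO libraries. The labelled cell type was thus not marked by some of its best known genes, while neuron markers were counted in all 6 libraries. In cKO replicate 2 only 9 of the 16 neuron markers had any count, and Tubb3 (1615 CPM) and Nefl (526 CPM) held nearly all of the sum. The 6 choroid plexus markers summed to 359, 144 and 125 CPM in controls 1 to 3, compared with 562, 47581 and 822 CPM in cKO 1 to 3. Of these, Ttr alone was higher without overlap, with 25.1, 7.37 and 0.147 CPM against 376, 45945 and 574 CPM. The part of these cells in the member values was not tested.

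Most of the release machinery was measured in every deep library, and almost none of it in cKO replicate 2. Of the 41 genes, 25 had at least 20 counts in all 5 deep libraries, 5 in 4 libraries, 4 in 3, 5 in 2 and 2 in a single one. Over all genes with 20 counts in at least 1 deep library, 49.8% reached them in all 5, against 61% of the 41. The active zone was least complete, with 2 of 6 genes measured in all deep libraries, against 6 of 9 SNARE genes, 4 of 5 synaptotagmins, 10 of 17 vesicle genes and 3 of 4 endocytosis genes. Counts of 0 within the deep libraries also occurred in well counted genes. Of the 35 members with at least 100 counts in some deep library, 8 had 0 in another, Sv2b among them, and 28% of all genes with 100 counts did so. Whether such a 0 is a missed transcript or an absent one was not tested.

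In cKO replicate 2 only 6 members had any count. Vamp2, Syt11, Sypl and Pclo held 99.8% of its 1328 member counts, and Napb and Snap91 had 1 count each. Scaling the mean level of the deep libraries to that depth, 17 members would have had 20 counts or more, and 15 of them had 0 or 1. The same was true of 68.4% of all 5085 genes with such a level. Snap25, for which 194 counts would have been expected, had 0. Sypl had 962 CPM there against 14 to 49.4 CPM in the deep libraries, and Pclo 742 against 2.19 to 22.9 CPM. Each comparison of the genotypes is therefore given with and without this library.

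**Figure D1:**
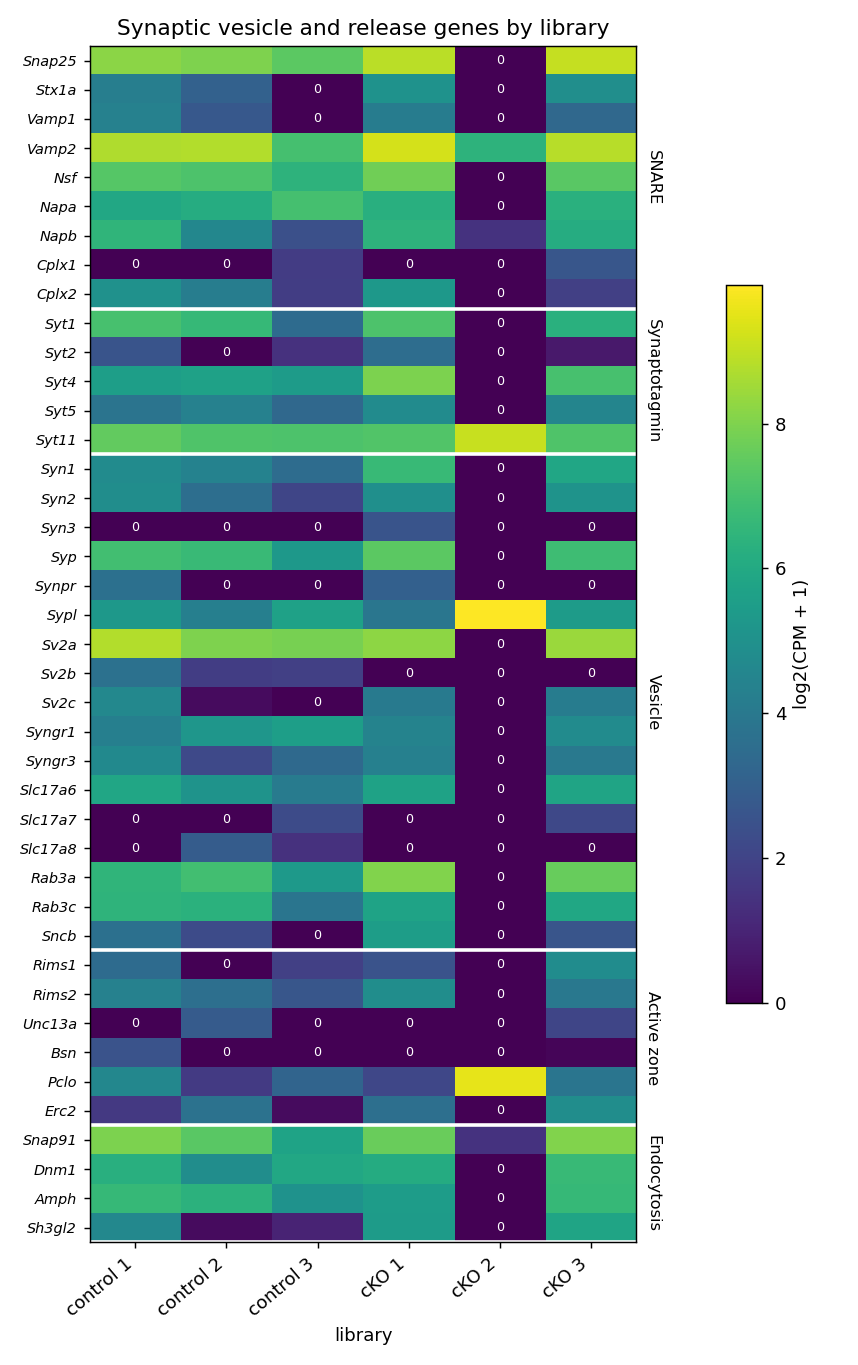
Heat map of log2(CPM + 1) for the 41 genes (rows, divided by role) in the 6 libraries (columns), with a printed 0 where no read was counted. The cKO 2 column is at 0 for all but 6 genes, and the active zone block is faint in the deep libraries.

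Among the SNARE genes, Snap25 and Vamp2 were the most abundant and both were higher in cKO replicates 1 and 3 than in every control. Of all genes tested, 13.0% were higher in this way. Snap25, the plasma membrane SNARE, had 293, 252 and 171 CPM in controls 1 to 3, compared with 473, 0 and 519 CPM in cKO 1 to 3. Vamp2, the vesicle SNARE, had 422, 436 and 125 CPM in controls 1 to 3, compared with 614, 84.4 and 461 CPM in cKO 1 to 3. For both genes the deep groups did not overlap, and the shallow library turned that into an overlap. Nsf, the ATPase that recycles SNARE complexes, had 157, 142 and 82.8 CPM against 215, 0 and 164 CPM, and its deep groups were separated by only a few CPM. Stx1a, the neuronal syntaxin, was scarcer at 17.8, 7.45 and 0 CPM against 32.1, 0 and 28.5 CPM.

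The remaining SNARE genes overlapped between the genotypes. Napa, which encodes alpha-SNAP, had 61.1, 69.1 and 126 CPM in controls 1 to 3, compared with 75.6, 0 and 77.7 CPM in cKO 1 to 3. Napb, which encodes the related brain form beta-SNAP, had 88.6, 22.9 and 4.42 CPM against 83.5, 1.76 and 68.5 CPM. In control replicate 3, where Napa was highest, Napb was lowest among the deep libraries. Cplx2, a complexin, had 31.4, 17.2 and 2.51 CPM against 37.5, 0 and 2.63 CPM, low in 1 deep library of each genotype. Vamp1, the minor vesicle SNARE, had 267, 72 and 0 counts in controls 1 to 3, compared with 232, 0 and 107 in cKO 1 to 3, and Cplx1 had at most 63 counts in any library.

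Of the 5 synaptotagmins, Syt4 and Syt5 were higher in both deep cKO libraries than in all controls, where 13.0% of all genes tested were, and Syt11 had much the same level in all deep libraries. Syt11, which lacks calcium binding and acts in membrane traffic in glia as well as neurons, had 183, 144 and 141 CPM in controls 1 to 3, compared with 150 and 143 CPM in cKO replicates 1 and 3, with 544 CPM in cKO replicate 2. Syt4, a synaptotagmin of dense core vesicles, had 45.9, 49.7 and 42.7 CPM in controls 1 to 3, compared with 246, 0 and 131 CPM in cKO 1 to 3. The controls were thus close together (46.1 ± 3.52 CPM, SD, n = 3) and both deep cKO libraries stood above them, although they differed from each other. Syt1, the main calcium sensor of fast release, had 130, 97.7 and 10.2 CPM against 141, 0 and 77.4 CPM and overlapped throughout. Syt5 had 13.2, 19.5 and 9.29 CPM against 26.6, 0 and 21.8 CPM, without overlap among the deep libraries, and Syt2 had at most 149 counts.

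On the vesicle itself, Sv2a, Rab3a and Syp led. Sv2a, a vesicle glycoprotein, had 441, 252 and 235 CPM in controls 1 to 3, compared with 297, 0 and 340 CPM in cKO 1 to 3. The deep cKO values lay inside the control range. Rab3a, the small GTPase that tethers vesicles for release, had 88.2, 119 and 39.9 CPM against 263, 0 and 196 CPM, with both deep cKO libraries above all controls (13.0% of all genes tested were). Syp, which encodes the vesicle protein synaptophysin, had 119, 103 and 37.9 CPM against 172, 0 and 113 CPM and overlapped. Rab3c, a relative of Rab3a, overlapped too, with 86.6, 78.8 and 13.6 CPM against 52.8, 0 and 59.3 CPM.

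The synapsins coat the vesicle and tie it to its neighbours. Syn1 had 26.6, 20.1 and 10.2 CPM in controls 1 to 3, compared with 102, 0 and 56.7 CPM in cKO 1 to 3, and Syn2 had 27.7, 11.1 and 3.17 CPM against 29.6, 0 and 33.5 CPM. Syn1 was well separated among the deep libraries and Syn2 narrowly so, where 13.0% of all genes tested were higher in cKO without overlap. Syn3 had 68 counts in cKO replicate 1 and 0 elsewhere. The glutamate transporter gene Slc17a6 (VGLUT2) had 57.8, 32.8 and 16.2 CPM against 50.8, 0 and 54.3 CPM. Its relatives were nearly absent: Slc17a7 (VGLUT1) had at most 51 counts in any library, and Slc17a8 (VGLUT3) had 0, 81 and 23 counts in the controls and 0 in every cKO library.

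Sypl, a synaptophysin relative found in many tissues, had 37.6, 18.6 and 49.4 CPM in controls 1 to 3, compared with 14 and 42.2 CPM in the deep cKO pair. Syngr1, a vesicle tetraspan protein gene, had 18.4, 36 and 46.2 CPM against 20.4, 0 and 26.3 CPM, and Syngr3 had 25.3, 3.53 and 9.36 CPM against 18.9, 0 and 15.2 CPM. All 3 overlapped. Sv2b was the only member that was lower in both deep cKO libraries than in all controls (12.6% of all genes tested were), with 163, 32 and 36 counts against 0 and 0. Its 0 in cKO replicate 2 shows no lower level, since 1.94 counts would have been expected at that depth. Pooled over each group it was at least 50.6-fold lower against a limit of 3 counts over the cKO group (at least 49.5-fold without cKO replicate 2), counting error only. Control replicate 1 held 163 of the 231 control counts, and the bound was 22.6-fold without it, 23.8-fold without cKO replicate 1 and 27.9-fold without cKO replicate 3. Sv2c had 321, 3 and 0 counts in controls 1 to 3, compared with 224, 0 and 197 in cKO 1 to 3, Synpr at most 161 and Sncb, the beta-synuclein gene, 158, 49 and 0 against 626, 0 and 60.

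Active zone genes, which build the release site, were thinly counted. Pclo (piccolo, a scaffold) had 22.9, 2.19 and 8.25 CPM in controls 1 to 3, compared with 3.31, 742 and 13.3 CPM in cKO 1 to 3, and Rims2, which links vesicles to calcium channels, had 19.7, 11.3 and 5.23 CPM against 28.3, 0 and 14.5 CPM. Apart from the shallow library, both overlapped. Rims1 had 138, 0 and 36 counts against 66, 0 and 317, and Erc2 had 29, 159 and 3 against 158, 0 and 327. Bsn (bassoon) had 66 counts in control replicate 1 and 1 in cKO replicate 3. Unc13a, the vesicle priming factor, had 79 counts in control replicate 2 and 38 in cKO replicate 3. Its counts are uncertain, because Colgalt1 overlaps 99% of the 500 exon bases at its 3' end. The same overlap was 5.8% for Rab3a (with Mpv17l2) and 1.8% for Syn1 (with Araf).

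Of the endocytosis genes, Snap91, the clathrin assembly protein AP180, had 250, 167 and 53.1 CPM in controls 1 to 3, compared with 198, 1.76 and 262 CPM in cKO 1 to 3. Dnm1, the neuronal dynamin that cuts vesicles from the membrane, had 75.3, 27.8 and 60.1 CPM against 67.4, 0 and 103 CPM. Amph, which recruits dynamin, had 98.1, 81.1 and 32.4 CPM against 43.3, 0 and 98.7 CPM. These 3 overlapped between the genotypes. Sh3gl2 (endophilin A1, which bends the membrane) had 323, 3 and 13 counts in controls 1 to 3, compared with 590, 0 and 647 in cKO 1 to 3. It was higher in both deep cKO libraries, as 13.0% of all genes tested were, although control replicate 1 reached 23.7 CPM.

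**Figure D2:**
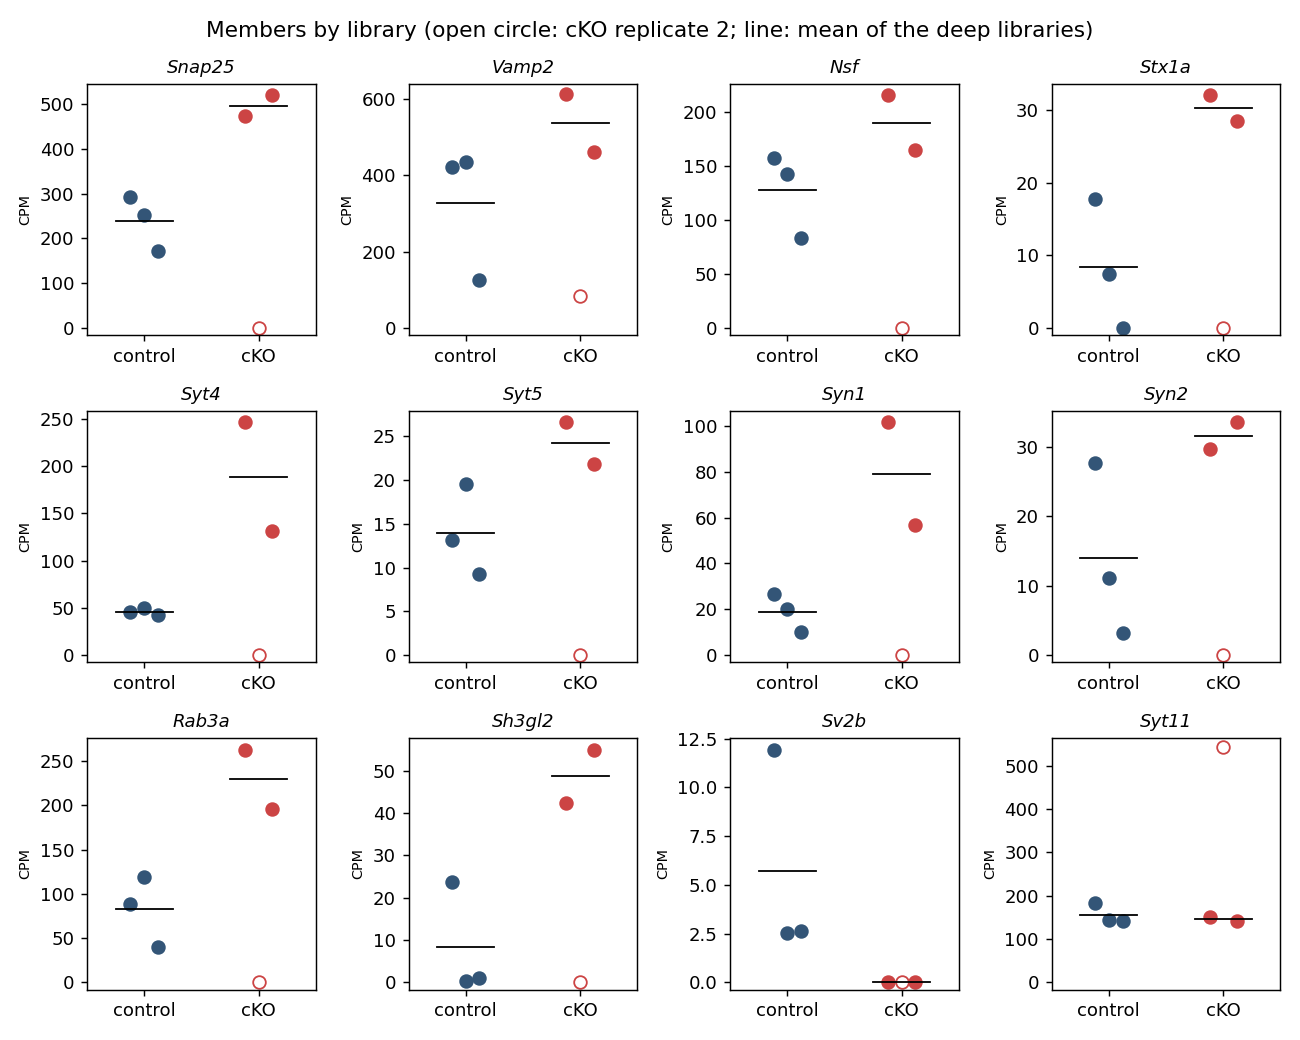
CPM (y axis) of 12 genes by genotype (x axis), 1 point per library; the open circle is cKO replicate 2 and the line is the mean over the deep libraries. In the first 10 panels both deep cKO points lie above the 3 control points (13.0% of all genes tested did so), Sv2b is at 0 in all cKO libraries, and Syt11 overlaps apart from the open circle at 544 CPM.

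The series title names CREB signalling, and the promoters of the 41 genes were therefore searched for the full cAMP response element, TGACGTCA, which reads the same on both strands. RefSeq promoters of 300 bases (GRCm38.p6) were found for 33 of the 41 genes, with 43 entries, and 3 of these held the element (6.98%), beside 1.79% of 32851 promoters of the same length. All 3 are shown, to set the position of the element beside the levels of the gene. Syn1 and Sh3gl2 were higher in both deep cKO libraries than in all controls, and Napa overlapped. Of the members kept by the filter 25.6% were higher in this way, and of all genes tested 13.0%. Whether the element goes with the level was not tested, and 3 genes are too few to show it. The element is in capitals, and the sequences run 5′ to 3′ on the gene's strand up to the base before the transcription start (for Napa, up to the start itself).
Syn1 (chrX:20920919-20921168, minus strand): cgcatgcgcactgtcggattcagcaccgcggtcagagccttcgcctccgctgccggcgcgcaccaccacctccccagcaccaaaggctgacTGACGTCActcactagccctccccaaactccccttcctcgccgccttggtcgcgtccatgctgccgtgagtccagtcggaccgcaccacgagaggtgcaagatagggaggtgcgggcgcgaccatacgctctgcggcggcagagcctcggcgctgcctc
Sh3gl2 (chr4:85205206-85205455, plus strand): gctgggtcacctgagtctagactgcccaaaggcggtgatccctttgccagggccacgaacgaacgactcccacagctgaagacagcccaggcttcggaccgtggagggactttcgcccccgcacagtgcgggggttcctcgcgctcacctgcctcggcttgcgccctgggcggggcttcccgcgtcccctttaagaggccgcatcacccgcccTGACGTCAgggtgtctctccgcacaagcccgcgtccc
Napa (chr7:16098330-16098580, plus strand): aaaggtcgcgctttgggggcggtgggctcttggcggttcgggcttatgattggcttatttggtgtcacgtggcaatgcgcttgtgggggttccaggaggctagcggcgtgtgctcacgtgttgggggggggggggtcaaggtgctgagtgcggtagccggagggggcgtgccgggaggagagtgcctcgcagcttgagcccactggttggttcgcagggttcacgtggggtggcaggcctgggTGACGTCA
The element began 159 bases before the start in Syn1, 37 bases before it in Sh3gl2 and 7 bases before it in Napa. A match of letters is a description and does not show that CREB binds there, and the other promoters lack only these letters in this window.

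Related members were far from equal in level, and which relative led was the same in all deep libraries for some families and not for others. A 3' tag count does not grow with transcript length, so CPM was compared between genes without a length correction. Overlap at the 3' end and PCR copies can still differ between genes. Vamp2 made up 95.6% to 100% of the Vamp1 and Vamp2 level and Sv2a 92.6% to 98.9% of the Sv2 level. Slc17a6 made up 74.8% to 100% of the vesicular glutamate transporter level, and Rab3a 50.5% to 83.3% of the Rab3a and Rab3c level. By contrast Napa made up 40.8% of the Napa and Napb level in control replicate 1 and 96.6% in control replicate 3. Within the 5 listed synaptotagmins, Syt11 led in all 3 controls (46.3% to 68.8%) and in cKO replicate 3 (38.2%), and Syt4 led in cKO replicate 1 (42.9%). The share of Syt4 was 12.2%, 16% and 20.8% in the controls and 42.9% and 35.1% in cKO replicates 1 and 3. Synaptotagmins outside the 41 genes are not part of these shares. Syt13 and Syt17, for instance, had means of 45.3 and 37.5 CPM over the deep libraries.

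**Figure D3:**
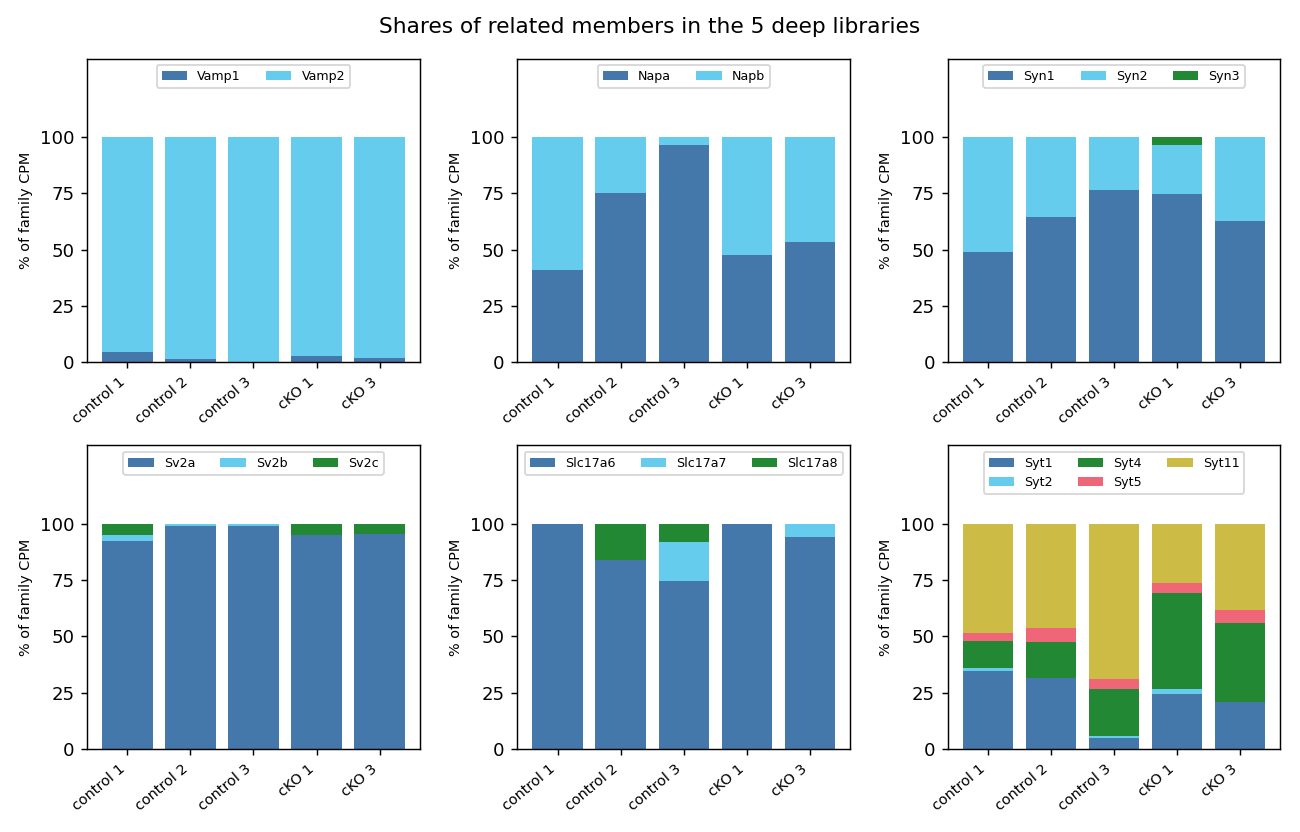
Stacked bars of each member's percentage of the CPM of the listed members of its family in the 5 deep libraries, for 6 families. Vamp2 and Sv2a fill nearly the whole bar in every library, Napa runs from 40.8% to 96.6%, and the Syt4 segment is taller in both cKO libraries.

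No member passed the test between the genotypes. With all 6 libraries, 34 of the 41 genes were kept by the filter on low counts and 0 passed edgeR's quasi-likelihood test (adjusted p threshold 0.05), against 0.0156% of 12833 genes tested. At an unadjusted p under 0.05, 2 members were higher (Pclo and Sypl) and 1 was lower (Sv2b), where 1.3% of all genes were higher and 1.53% lower. Pclo had a log2 fold change of 4.42 (SE 1.84) and Sypl of 3.20 (SE 1.55), both with an adjusted p of 1 by edgeR (0.132 to 1 for Pclo and 0.255 to 1 for Sypl over the alternatives). Both rest on cKO replicate 2: without it the log2 fold changes were -0.44 and -0.32. The median log2 fold change of the 34 genes was 0.24, beside -0.44 over all genes tested.

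Without cKO replicate 2, 39 members were kept and again 0 passed, against 0.00687% of 14562 genes. Some genes are kept through the group where they are high, so counts and medians over the kept members are descriptions. An unadjusted p under 0.05 was reached by 4 members in the higher direction, where 3.06% of all genes did so, and by Sv2b in the lower direction, where 3.03% did (adjusted p = 0.767 by edgeR, 0.0781 to 0.978 over the alternatives). The 4 were Syt4 (log2 fold change 2.05, SE 0.40, adjusted p = 0.662 by edgeR), Syn1 (2.06, SE 0.62), Snap25 (1.05, SE 0.32) and Rab3a (1.48, SE 0.50), the last 3 with an adjusted p of 0.767 by edgeR. Over the alternatives without cKO replicate 2, the adjusted p ran from 0.00453 to 0.978 for Syt4, from 0.137 to 0.978 for Syn1, from 0.092 to 0.978 for Snap25 and from 0.186 to 0.978 for Rab3a. DESeq2 alone called Syt4 (log2 fold change 2.08, adjusted p = 0.00453) and no other member, where 2.05% of 14562 genes were called. It gave no adjusted p for 3 of the 39 members. The median log2 fold change of the 39 genes was 0.60, beside -0.06 over all genes tested, and 28 of 39 (71.8%) lay above 0, beside 47.9% of all genes.

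In the GRCm39 annotation of the count files, Snap25 spans chr2:136555373-136624348 (plus strand), Syn1 chrX:20726750-20787243 (minus strand), Rab3a chr8:71207328-71211323 (plus strand) and Sv2b chr7:74764642-74959010 (minus strand), and the counts fall on their exons.

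Deep libraries of the genotypes did not overlap in 11 members. In 10 genes both deep cKO libraries lay above all controls: Snap25, Stx1a, Vamp2, Nsf, Syt4, Syt5, Syn1, Syn2, Rab3a and Sh3gl2. This was 25.6% of the 39 kept, where 13.0% of all genes tested did the same. Sv2b alone lay below, where 12.6% of all genes did. By role these were 4 of 9 SNARE genes, 2 of 5 synaptotagmins, 3 of 17 vesicle genes, 0 of 6 active zone genes and 1 of 4 endocytosis genes higher. With all 6 libraries, no member was higher without overlap (1.33% of all genes) and Sv2b was lower (11.1% of all genes), with a 0 in cKO replicate 2 that allows a level above those of controls 2 and 3. The count of 10 was 22 without control replicate 1, 16 without cKO replicate 1 and 17 without cKO replicate 3, beside 19%, 26.4% and 26.5% of all genes. Leaving out a library can only keep or raise such a count, so these values do not test it.

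**Figure D4:**
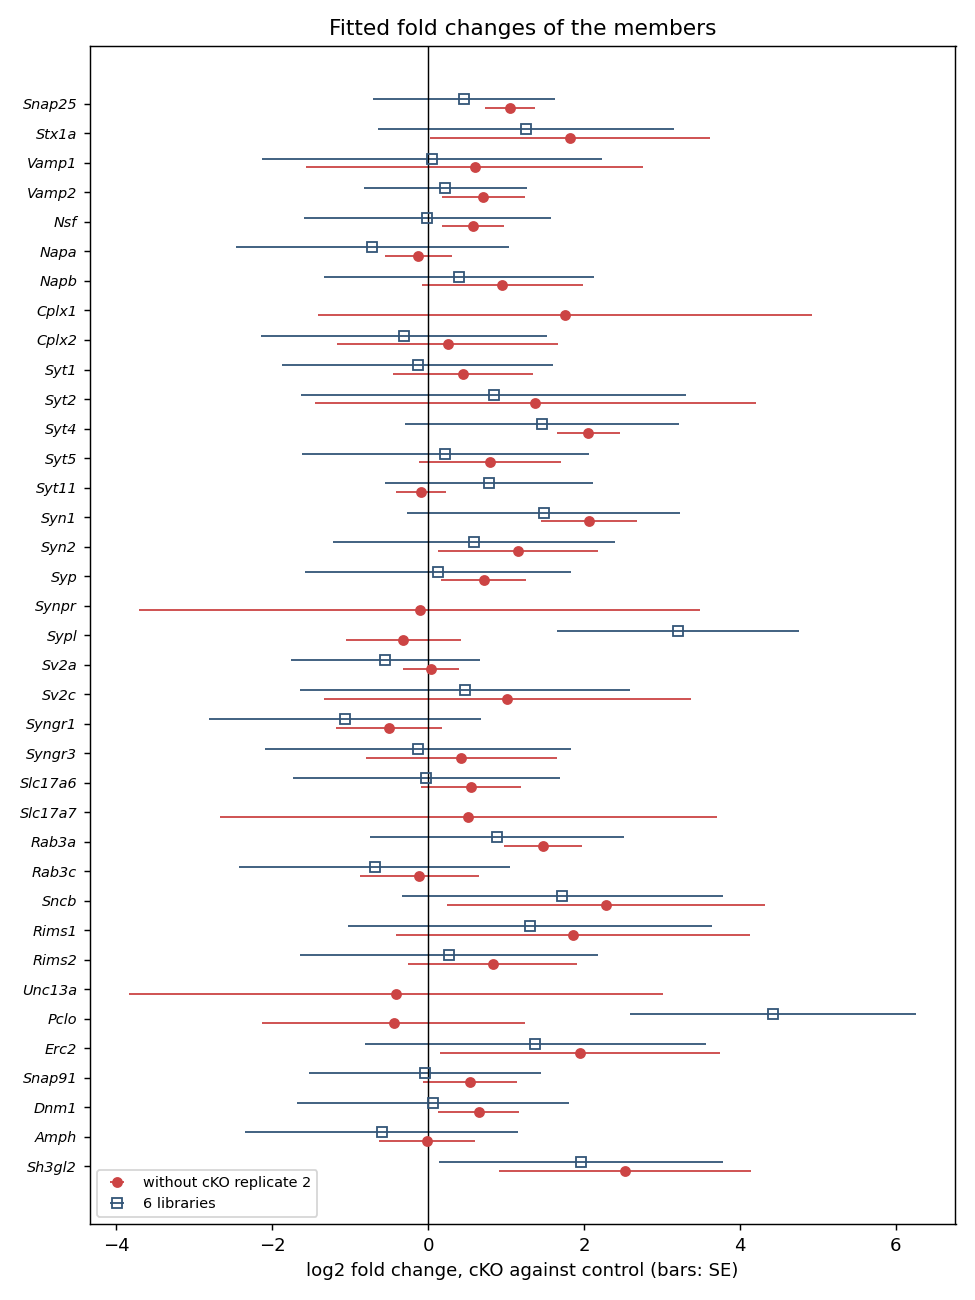
Log2 fold change of cKO against control (x axis, bars show the SE) for each gene with a fitted value and counts in both groups, with all 6 libraries (open squares) and without cKO replicate 2 (filled circles). Bars are wider with all 6 libraries for most genes, and Pclo and Sypl move from far right to the other side of 0 when that library is left out.

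Among the deep libraries, both cKO libraries had the highest summed levels of release genes and of neuron markers, and control replicate 3 the lowest. The 41 genes summed to 2962, 2260 and 1351 CPM in controls 1 to 3, compared with 3613, 2336 and 3276 CPM in cKO 1 to 3, which gives means of 2191 ± 808 and 3075 ± 662 CPM (SD, n = 3). Leaving cKO replicate 2 aside, the cKO mean was 3445 CPM. Control replicate 3 was lowest of the deep libraries for 19 of the 25 genes measured in all of them. Without it the difference between the group means was 464 CPM in place of 884 CPM. Of the 25 genes, 19 had a higher mean in cKO replicates 1 and 3 than in the controls (76%), beside 50.2% of all genes measured in every deep library. The sum in cKO replicate 2 came from 4 genes: without Vamp2, Syt11, Sypl and Pclo it was 3.52 CPM. The difference between the group means over all 6 libraries was then 157 CPM. With cKO replicate 2 left aside, these 37 genes had means of 1661 CPM in the controls and 2724 CPM in cKO. Of 8 astrocyte markers, 5 were lower in both deep cKO libraries than in all controls and 1, Slc1a3, was higher (179 against 374 CPM). Among all genes tested, 12.6% were lower and 13.0% higher in this way. Gfap had a mean of 219 CPM in the controls and 32 CPM in cKO replicates 1 and 3, Gja1 had 234 against 150 CPM, and Aqp4, Aldh1l1 and Mlc1 had 0 counts in every cKO library. The astrocyte sums overlapped, at 866, 1112 and 676 CPM in controls 1 to 3 and 784 and 649 CPM in the deep cKO pair, and their part in the member levels was not tested. In bulk samples, fewer cells of a type and less RNA per cell cannot be told apart.

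The 16 neuron markers, of which 10 had at least 20 counts in every deep library, summed to 7970, 6504 and 2514 CPM in controls 1 to 3, compared with 8749, 2181 and 9049 CPM in cKO 1 to 3. Their lowest deep library was also control replicate 3. Rbfox3, a marker of mature neurons, had 0 counts in 4 libraries and at most 80, whereas Gap43 of growing neurites had at least 623 CPM and Tubb3, a neuronal tubulin gene, at least 913 CPM in every deep library. The markers did not move together, so their sum is an uneven measure of neuron content. Among the deep libraries, 4 were higher in cKO without overlap (Mapt, Nefl, Dcx and Gap43) and 2 lower (Gad1 and Gad2). Of all genes tested, 13.0% were higher and 12.6% lower. Dcx had means of 129 CPM in the controls and 653 CPM in cKO replicates 1 and 3, and Gad1 had 49.3 and 0 CPM. In cKO replicate 2 the member sum and the neuron marker sum each rest on a few genes. The member sum over the neuron marker sum was 0.372, 0.347 and 0.537 in controls 1 to 3, compared with 0.413, 1.07 and 0.362 in cKO 1 to 3, so the deep cKO values fell inside the control range. Divided in this way, 4 members remained higher in both deep cKO libraries than in all controls (Stx1a, Syn1, Rab3a and Sh3gl2), where 3.77% of all genes tested did so, and 4 were lower (Syt11, Sv2a, Sv2b and Amph), where 24% did. The divisor was higher in both deep cKO libraries than in all controls, so the division lowers every gene there, neuronal or not. The shares over all genes are thus no baseline for neuronal genes. Syn1 had 3.34, 3.09 and 4.07 CPM per 1000 CPM of neuron markers in controls 1 to 3, compared with 11.6 and 6.26 in cKO replicates 1 and 3. Rab3a had 11.1, 18.3 and 15.9 against 30.1 and 21.6. Snap25 (36.8, 38.7 and 68.1 against 54 and 57.4) and Syt4 (5.76, 7.64 and 17 against 28.1 and 14.5) overlapped. The part of neuronal content in the differences between the genotypes was not tested beyond this division.

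**Figure D5:**
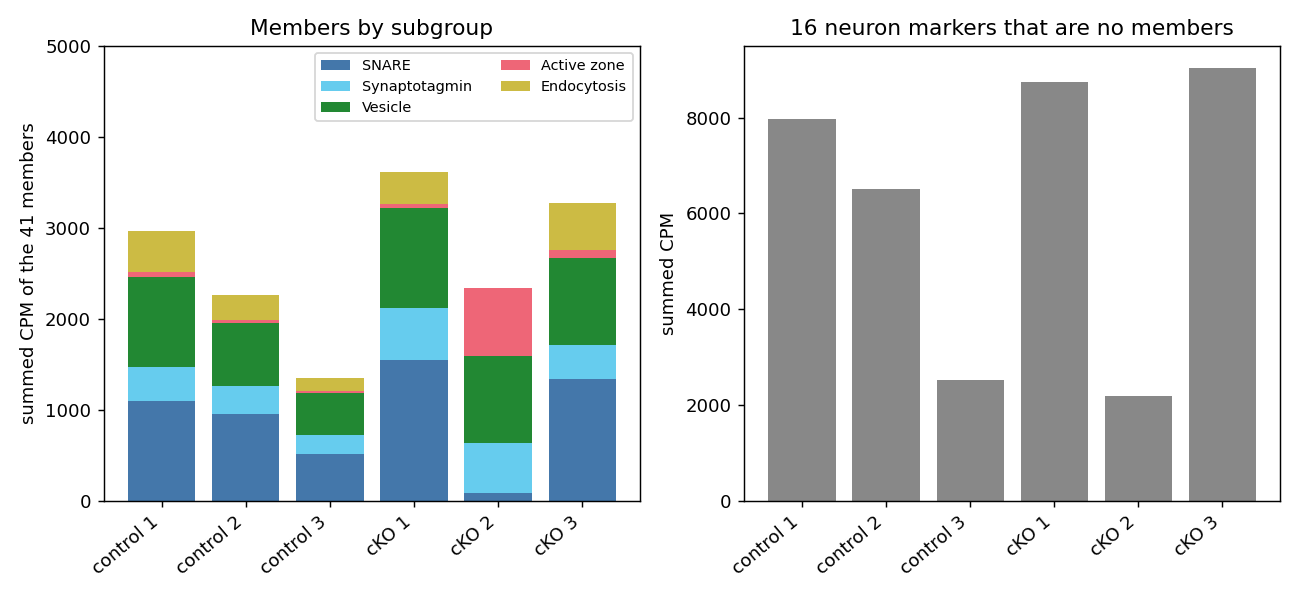
Summed CPM (y axis) of the 41 genes by role (left) and of 16 neuron markers (right) in each library. Control 3 is lowest of the deep libraries in both panels, and in cKO 2 the SNARE segment shrinks to 86.2 CPM while Pclo fills the active zone segment.

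A wider list of 95 genes of vesicle traffic and release, of which 94 were matched, was read from the same fits. With all 6 libraries 73 were kept and 0 passed, against 0.0156% of all genes tested. Without cKO replicate 2, 80 were kept and 0 passed, against 0.00687% of all genes. At an unadjusted p under 0.05 by edgeR, 8 of these were higher and 1 lower, where 3.06% of all genes were higher and 3.03% lower. Among these 80, 21 (26.2%) were higher in both deep cKO libraries than in all controls and 4 (5%) were lower, beside the 13.0% and 12.6% of all genes given above. Atp6ap2, an accessory subunit of the proton pump that fills vesicles, had 177, 226 and 192 CPM in controls 1 to 3, compared with 420, 619 and 434 CPM in cKO 1 to 3, higher in all 3 (without cKO replicate 2, log2 fold change 1.12, SE 0.26, adjusted p = 0.767 by edgeR, 0.016 to 0.978 over the alternatives). Syt16 was not counted in any control and had 230, 0 and 166 counts in cKO 1 to 3. Without cKO replicate 2 its adjusted p was 0.767 by edgeR and 0.00266 by DESeq2. With all 6 libraries the filter dropped it. It was kept here only through the cKO group where it was high, so these p-values are descriptions. In the lower direction, Clta, a clathrin light chain, had 985, 826 and 1027 CPM in controls 1 to 3, compared with 462, 899 and 669 CPM in cKO 1 to 3 (log2 fold change -0.73 without cKO replicate 2, adjusted p = 0.767 by edgeR, 0.134 to 0.978 over the alternatives). Slc32a1, the transporter that loads GABA and glycine, had 76.8, 108 and 4.5 CPM against 13.4, 0 and 3.48 CPM and overlapped.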

How the data were processed

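Libraries were made from total RNA with a 3' tag kit, per the labels' protocols. Each deposited file holds whole-number read counts for 1 library. The authors counted with featureCounts 2.0.0, summing exons by gene in the GRCm39 annotation of Ensembl release 104, per the file headers. The command names no strand option, so reads of overlapping genes cannot be told apart. Per the submitters' processing notes, FastQC, STAR and DESeq2 were also used (versions not given in the sources used here).

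Symbols came from a table that named 52083 of 55416 genes. CPM were counts scaled to the library total. Genes kept by filterByExpr were scaled by TMM and tested with the quasi-likelihood test of edgeR 4.0.16 (R 4.3.3), two-sided, cKO against control, with Benjamini-Hochberg adjustment over all genes tested and a threshold of 0.05, with and without cKO replicate 2. The test was checked only on simulated counts that varied far less between libraries than these data do. That check does not show how many changes the test would find here. Tried besides were DESeq2 1.42.0, voom of limma 3.58.1, scaling by RLE or upper quartile, no filter, the replicate number as a block, and leaving out each library. Members and lists were chosen with earlier results of these data known. Values per library are given for members with 20 counts in all deep libraries, with groups that do not overlap or with an unadjusted p under 0.05; other members are given by counts. From the wider list, the 2 genes per direction with the smallest p without cKO replicate 2 are named. Vamp2, Syt11, Sypl and Pclo were set apart, and levels divided by neuron markers, after the data were seen. Nothing says whether molecular identifiers were used, so counts may include PCR copies.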

Additional observations from a re-analysis of the deposited data

How the results depend on the processing

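The count of members past the threshold was 0 under all 12 alternatives of the comparison with 6 libraries, although DESeq2 gave no adjusted p for 27 of the 34 members. Without cKO replicate 2 it was 1 (Syt4) with DESeq2 and 0 under the other alternatives, leaving out each remaining library among them (chosen after seeing the data; with cKO replicate 1 or 3 left out, the lone cKO library is assumed to vary like the controls). Over all genes, 2 passed with 6 libraries, 16 with RLE scaling, 0 with upper-quartile scaling, 5 with DESeq2, 14 with limma-voom, 23 without a filter and 1 to 7 leaving out a library. With the replicate block 1 gene and 0 members passed. The correlation of deviations between same-numbered libraries was 0.0791, 0.0511 and 0.0112, so the numbers were not taken to pair the samples. Upper-quartile scaling moved the median log2 fold change of all genes from -0.44 to -0.0079 and RLE to -0.28. The difference in summed level ran from 464 to 1270 CPM leaving out a library. The number of genes measured in all deep libraries was 25 at 10 counts and 21 at 50. The count of 10 genes higher without overlap ran from 11 to 22 leaving out a library, which can only keep or raise it. It was 4 per neuron marker level. The bound for Sv2b ran from 22.6 to 64.6-fold leaving out a library (also chosen after seeing the data).

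Of 336 alternative fold changes of 28 members with 6 libraries, 276 kept their direction and 60, in 18 genes, did not; no member had passed, and the cause was not tested. The log2 values that turned were with limma-voom Snap25 -0.78, Syp -0.83, Syngr3 0.28, Rab3a -0.24, Dnm1 -0.70. They were with the replicate block Snap25 -0.43, Syt5 -0.26, Syp -0.51, Rims2 -0.32, Dnm1 -1.07, and with RLE scaling Nsf 0.10, Syt1 0.014, Syngr3 0.015, Slc17a6 0.12, Snap91 0.072. They were with upper-quartile scaling Nsf 0.22, Syt1 0.17, Syngr3 0.21, Slc17a6 0.32, Snap91 0.24, and with DESeq2 Nsf 0.10, Syt1 0.0087, Syngr3 0.023, Slc17a6 0.11, Snap91 0.074, and with no filter Nsf 0.029, Slc17a6 0.0084. Leaving out each library in turn, the log2 fold changes that turned ran for Vamp2 -0.32 to 0.71, Nsf -0.66 to 0.58, Napb -0.17 to 1.91, Cplx2 -3.48 to 0.49, Syt1 -1.07 to 0.45, Syt5 -0.35 to 0.80, Syt11 -0.084 to 1.05, Syp -0.65 to 0.71. They ran for Sypl -0.32 to 3.71, Sv2a -1.004 to 0.041, Syngr3 -0.71 to 0.89, Slc17a6 -0.42 to 0.55, Rims2 -0.71 to 0.83, Pclo -0.44 to 5.51, Snap91 -0.61 to 0.54, Dnm1 -0.61 to 0.65. By counting error alone, a count of 0 in cKO replicate 2 allows up to 5.28 CPM. Of 17 members with at least 20 counts expected at its depth, 15 had 0 or 1, so a 0 there may allow more. The reason was not tested.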
